A study of Mus musculus with 6 samples.

Results

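The genes described here are 10 immediate early genes: the FOS family members Fos, Fosb and Fosl2, the JUN family members Jun, Junb and Jund, the zinc finger factor Egr1, the stress-induced factor Atf3, the nuclear protein gene Ier2, and Zfp36, which encodes an mRNA-destabilising protein. They were chosen by name, with earlier results of these data known, so counts of falls among them are a description and not an independent test. A probe set annotated to 1 gene symbol existed for 9 of the 10, out of 19296 genes measured, and each of the 9 genes had 1 such probe set. Jund was not analysed here. Expression was measured on 6 Affymetrix arrays, on RNA of ureteric bud cells from mouse kidneys at E15.5, a stage of active branching. The ureteric bud is the branching epithelial tube that becomes the collecting ducts. In the 3 Dicer mutant samples the genotype was Dicerc/-; Hoxb7Cre; Rosa26YFP, that is, 1 conditional and 1 null allele of Dicer, a Cre transgene driven in the ureteric bud, and a reporter that turns yellow fluorescent where Cre has acted. The 3 control samples are labelled wild type. Cells of both groups were freed with trypsin and sorted on yellow fluorescence, and the strain background was mixed in both. The labels do not give the source of the yellow fluorescence of the control cells, or whether these embryos carried Hoxb7Cre and the reporter. From the labels alone, an effect of Cre therefore cannot be told apart from that of Dicer loss. The number of embryos behind each array is not given either.

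Immediate early genes are transcribed within minutes of a growth factor signal, a stress or a mechanical disturbance, from factors already present in the cell, and their mRNAs are short-lived. FOS proteins pair with JUN proteins through a leucine zipper to form AP-1, which binds DNA at the AP-1 site, and EGR1 binds GC-rich sites. In the ureteric bud the receptor tyrosine kinase Ret feeds the ERK pathway that acts on several of these promoters, and dissociating a tissue with enzymes is well known to induce the same genes.

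The promoter sequences of 8 of the 10 genes were available from RefSeq (GRCm38.p6), and those of Egr1 and Ier2 were not analysed here. The last 150 bases before the annotated start of transcription are shown for Fos, Fosb, Junb and Zfp36, which were lower in the mutant cells, and for Fosl2, which did not pass the test. They are shown because these promoters are where the inducing signals are read. Each is written 5′ to 3′ on the strand of the gene, and capitals mark the motifs found by exact letter match.
Fos (chr12:85473740-85473889, plus strand): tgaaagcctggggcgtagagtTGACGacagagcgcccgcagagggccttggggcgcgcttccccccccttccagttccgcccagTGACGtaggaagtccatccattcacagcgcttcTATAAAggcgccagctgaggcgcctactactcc
Fosb (chr7:19310046-19310195, minus strand): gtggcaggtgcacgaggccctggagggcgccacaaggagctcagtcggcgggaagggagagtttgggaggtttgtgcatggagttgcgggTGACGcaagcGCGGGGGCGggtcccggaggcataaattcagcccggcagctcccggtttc
Junb (chr8:84978749-84978898, minus strand): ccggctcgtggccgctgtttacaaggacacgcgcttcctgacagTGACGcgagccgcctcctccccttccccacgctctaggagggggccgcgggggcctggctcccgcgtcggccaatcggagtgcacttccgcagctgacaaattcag
Zfp36 (chr7:28379229-28379378, minus strand): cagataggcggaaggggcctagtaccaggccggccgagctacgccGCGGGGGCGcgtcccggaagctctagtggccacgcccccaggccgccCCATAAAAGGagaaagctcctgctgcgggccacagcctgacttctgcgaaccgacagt
Fosl2 (chr5:32136322-32136471, plus strand): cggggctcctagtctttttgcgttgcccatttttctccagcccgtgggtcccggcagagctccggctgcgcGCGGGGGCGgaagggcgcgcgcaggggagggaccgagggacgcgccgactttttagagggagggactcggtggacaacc

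The motifs were searched on both strands in the 250 bases before the start. The EGR site (GCGTGGGCG or GCGGGGGCG) was in 3 of the 8 promoters, those of Fosb (positions -50 to -42, counted back from -1 at the base before the start), Zfp36 (-105 to -97) and Fosl2 (-79 to -71), always as GCGGGGGCG. It was in 3.06% of all 32851 promoters in the table. The CArG box, the core of the serum response element, was in the promoter of Zfp36 (CCATAAAAGG, -58 to -49) and in 1.47% of all promoters. The short form of the cyclic AMP response element (TGACG) was in 4 of the 8, at -129 and -66 in Fos, -60 in Fosb, -106 in Junb and -7 on the opposite strand in Atf3, and in 17.8% of all promoters. Fos also held a TATA box (TATAAA, -33 to -28), as did 12.4% of all promoters. No exact full cyclic AMP response element (TGACGTCA, in 1.55% of all promoters) or AP-1 site (TGACTCA or TGAGTCA, in 4.46%) lay in these windows, and the windows of Jun and Jund held no exact match to any of the motifs. Exact matching leaves out near matches, such as TGACATCA in the window of Jun. Sites more than 250 bases before the start were not searched, so a gene without a match here may still have such a site. No motif matches overlapped in the members' windows. The EGR site thus stood in front of genes that were lower in the mutant cells and of Fosl2, whose level did not pass the test.

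Expression is given as log2 RMA values, on which a difference of 1 is a doubling, and adjusted p-values come from limma with Benjamini-Hochberg adjustment over all 19296 genes. Array medians ran from 7.47 to 7.54, and Pearson's r over all probe sets, which are not independent replicates, from 0.996 to 0.998 for arrays of 1 group and from 0.988 to 0.992 for arrays of different groups. Dicer1, the targeted gene, was lower on all 3 mutant arrays (9.64 to 9.80) than on any control array (10.25 to 10.38), with a log2 fold change of -0.59 and an adjusted p of 0.0005. Whether its probes lie inside the deleted part is not given, so the remaining signal does not count cells that kept the enzyme. All 15 ureteric epithelium markers lay above the median of all probe sets (7.51), with mean log2 levels of 11.41 to 11.42 on control and 11.23 to 11.31 on mutant arrays. Of these markers 7 fell, 1 rose and 7 did not pass. The largest falls were those of Krt19 (log2 fold change -1.19) and Wnt11 (-0.60), Ret had one of -0.35, and the marker that rose was Wnt9b (1.42).

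Of the 9 measured genes, 6 fell in the Dicer mutant cells (Fos, Fosb, Junb, Egr1, Ier2 and Zfp36), 0 rose and 3 (Fosl2, Jun and Atf3) did not pass the test. Their median log2 fold change was -0.49, against -0.05 over all genes. Over all genes 25.8% passed, 13.9% lower and 11.8% higher. All 9 genes lay above the median brightness, and among the 9677 genes of that kind 39.6% passed, 20.3% lower and 19.3% higher. The arrays of the groups did not overlap for the 6 genes that fell, as for 24.1% of all genes in that direction and 42.5% in either. Among the 9677 genes above the median brightness the groups did not overlap for 6033, counting both directions. Lack of overlap was thus common among genes as bright as these. Each fall was smaller than 2-fold, from 1.38-fold for Egr1 to 1.60-fold for Junb. In bulk RNA, fewer cells expressing a gene and less RNA per cell cannot be told apart.

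**Figure D1:**
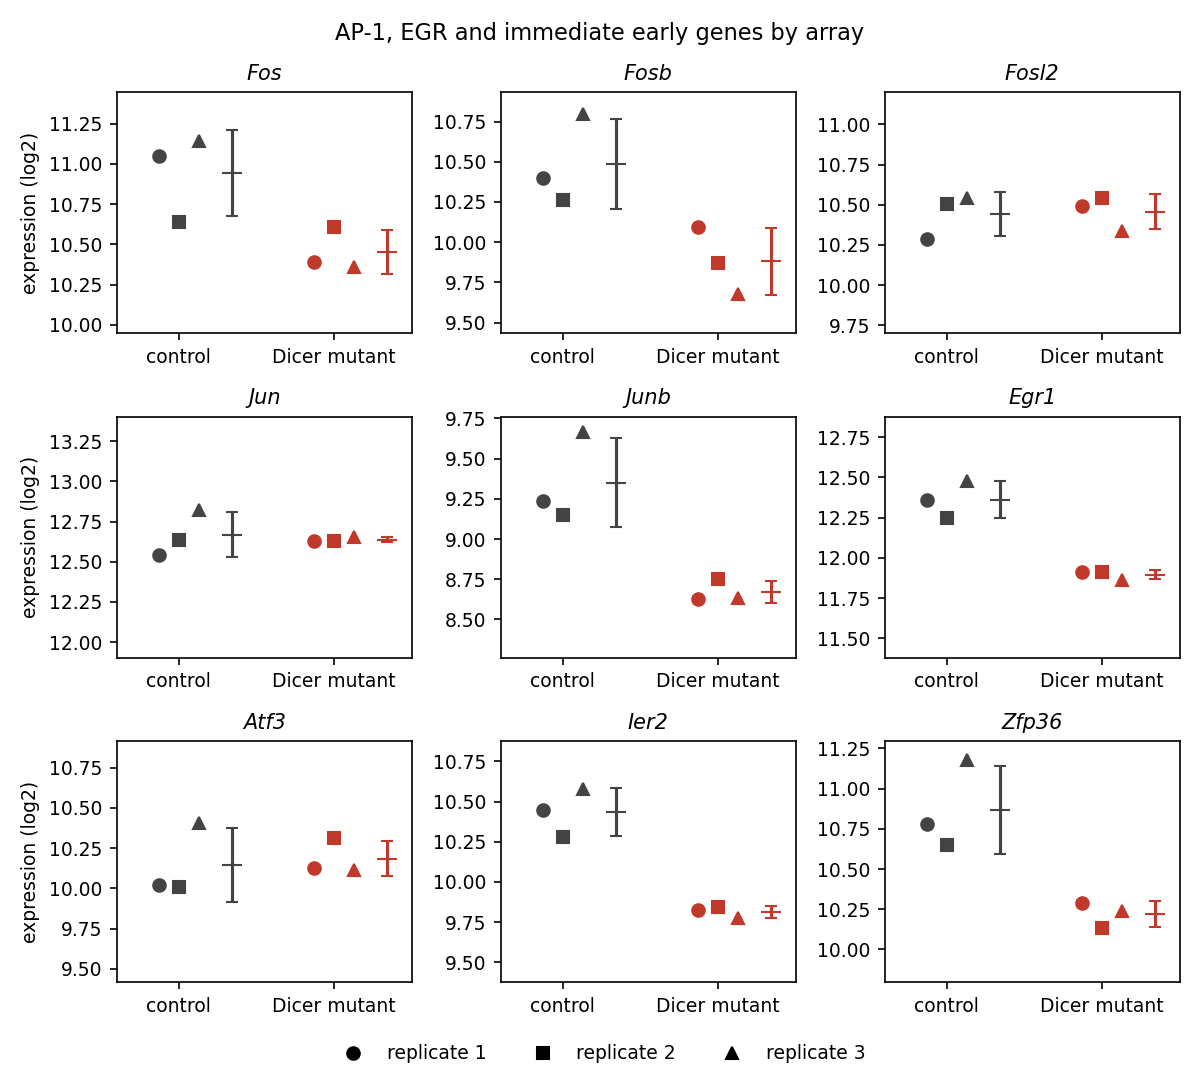
Expression (log2 RMA value) of the 9 measured genes on each of the 6 arrays, control in grey and Dicer mutant in red, with marker shape giving the replicate number and the bar at the right of each group its mean ± SD (n = 3). Each panel spans the same number of log2 units; the groups are apart for Fos, Fosb, Junb, Egr1, Ier2 and Zfp36 and intermingle for Fosl2, Jun and Atf3.

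Among the FOS genes, Fos and Fosb fell, and Fosl2 gave nearly equal means. Fos, the prototype of the family and the partner of JUN in the first AP-1 dimers made after a stimulus, read 11.05, 10.64 and 11.14 in control replicates 1 to 3 and 10.39, 10.61 and 10.36 in mutant replicates 1 to 3. The lowest control array and the highest mutant array were only 0.03 apart, so the groups barely separated. The log2 fold change of -0.49 (standard error 0.13, 95% interval -0.80 to -0.18, adjusted p = 0.0294) passed. That call was lost when any of 4 arrays was left out, with an adjusted p of 0.0867 without control replicate 1, 0.0643 without control replicate 3, 0.0915 without mutant replicate 1 and 0.0938 without mutant replicate 3.

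Fosb, a second FOS protein that is strongly induced by stimulation, read 10.40, 10.26 and 10.80 in control cells and 10.09, 9.87 and 9.68 in mutant cells. All mutant arrays were below all control arrays, and Fosb had the widest spread of the 9 genes within the mutant group. Fosb was 1.52-fold lower (log2 fold change -0.60, standard error 0.15, adjusted p = 0.0213). Without mutant replicate 2 or mutant replicate 3 it did not pass (adjusted p = 0.0685 and 0.0724). Fosl2, which encodes FRA2, a FOS protein that lacks the strong activation domain and is induced more slowly, read 10.29, 10.51 and 10.54 in control cells and 10.49, 10.54 and 10.34 in mutant cells. Its groups overlapped over most of their ranges. Its log2 fold change of 0.01 had a 95% interval of -0.19 to 0.21, which leaves room for a change of that size in either direction.

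The JUN genes divided in the same way. Junb, a JUN protein that often restrains JUN activity, had the largest fall of the 9 genes. It read 9.24, 9.15 and 9.66 in control cells and 8.63, 8.75 and 8.64 in mutant cells, so that even the lowest control array stood 0.40 above the highest mutant array. Its 1.60-fold fall (log2 fold change -0.68, standard error 0.13, 95% interval -0.97 to -0.39, adjusted p = 0.0060) ranked 261 among all genes ordered from the largest fall. Jun, the main transactivating partner of FOS, read 12.54, 12.64 and 12.82 in control cells and 12.63, 12.63 and 12.65 in mutant cells. The 3 mutant values lay within the range of the controls and close to one another, and the log2 fold change was -0.03 (95% interval -0.21 to 0.15, adjusted p = 0.799).

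The contrast within each family was also computed array by array, for 3 pairs of genes chosen after their values were seen. The difference between Junb and Jun was 0.65 log2 units more negative in mutant than in control cells, and its arrays did not overlap between groups. That between Fosb and Fosl2 moved by -0.62 and that between Fos and Fosl2 by -0.50, again without overlap. Each pair set a gene that fell against one that did not pass, so the direction of these differences followed from the choice. A two-sided exact permutation test gave p = 0.1 for each pair, which is the smallest value that this test can give with 3 against 3 arrays.

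Egr1, a zinc finger factor induced through serum response elements by ERK signalling, fell with little spread. Control arrays read 12.36, 12.25 and 12.48 and mutant arrays 11.91, 11.91 and 11.86. The mutant values were almost identical, with an SD of 0.03 (n = 3) against 0.12 (n = 3) in control cells. The fall of 0.47 on the log2 scale had a standard error of 0.07 and a 95% interval of -0.63 to -0.31 (adjusted p = 0.0022).

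Ier2, a small nuclear protein gene induced together with Fos, read 10.45, 10.28 and 10.58 in control cells and 9.83, 9.85 and 9.77 in mutant cells. It combined a large fall with small spread, and its adjusted p of 0.0011 was the lowest of the 9 genes (log2 fold change -0.62, standard error 0.08, 95% interval -0.80 to -0.44). Zfp36 encodes tristetraprolin, which binds AU-rich elements in short-lived mRNAs, those of several immediate early genes and its own among them, and brings in the deadenylation machinery. It read 10.78, 10.65 and 11.18 in control cells and 10.29, 10.13 and 10.24 in mutant cells, a gap of 0.36 between the nearest arrays of the groups. Zfp36 was thus 1.57-fold lower (log2 fold change -0.65, standard error 0.13, adjusted p = 0.0075).

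Atf3, a member of the ATF/CREB group that pairs with JUN proteins and is induced by stress, read 10.02, 10.01 and 10.41 in control cells and 10.13, 10.31 and 10.12 in mutant cells. Control replicate 3 was above every mutant array and the other controls below them. The log2 fold change was 0.04 (95% interval -0.23 to 0.31, adjusted p = 0.827), and without control replicate 3 it was 0.17 (adjusted p = 0.143).

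**Figure D2:**
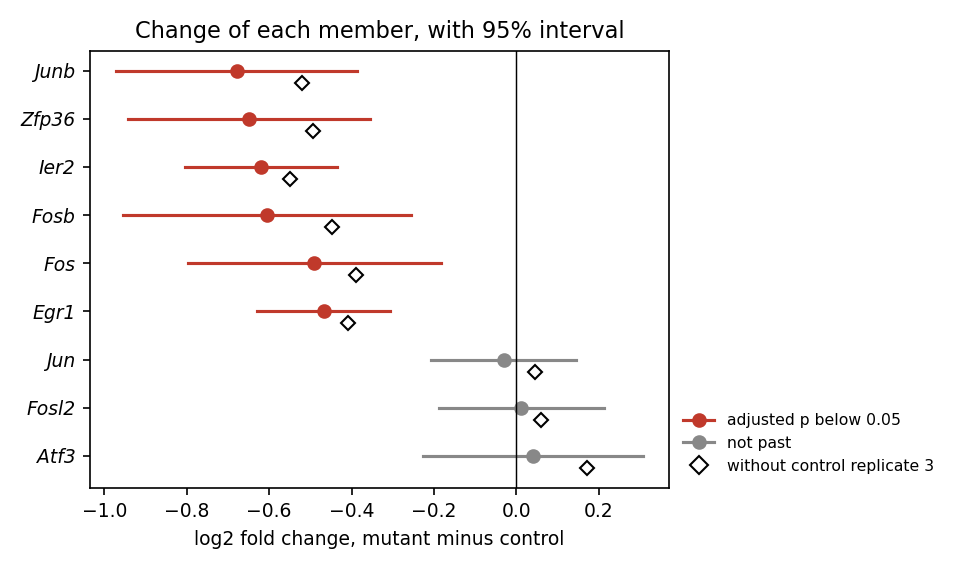
Log2 fold change (mutant minus control) of the 9 genes with its 95% interval from limma; red marks an adjusted p below 0.05, and open diamonds give the value without control replicate 3. The 6 called genes lie between -0.68 and -0.47. They move toward 0 without that array, which follows from its being their highest control array. Jun, Fosl2 and Atf3 have intervals that span 0.

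The genes also moved together from array to array among the controls. On each mutant array their deviations from the group mean had mixed signs, such as 0.21 for Fosb and -0.06 for Fos on mutant replicate 1. Control replicate 3 was the highest control array for all 9 genes and control replicate 2 the lowest for 7 (control replicate 1 for Fosl2 and Jun). Averaged over the 9 genes, control replicate 3 stood 0.21 above its group mean, control replicate 1 0.06 below it and control replicate 2 0.15 below it, whereas the 3 mutant arrays deviated by 0.02, 0.04 and -0.06. The same mean over all 19296 genes was 0.02, 0.00 and -0.02 for the controls, a mean that RMA normalization itself holds near 0. Pearson's r between the within-group deviations of 2 genes was above 0 for all 36 pairs, with a median of 0.77 over 6 arrays. The points share arrays and group means, and control replicate 3 weighs on each of them, so this is a description only.

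**Figure D3:**
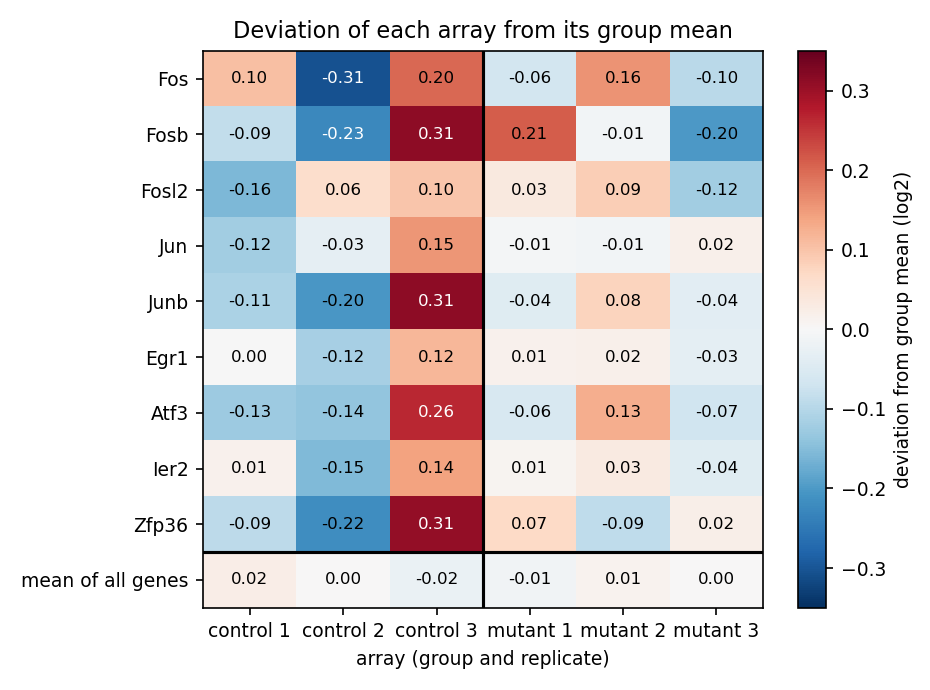
Deviation of each array from the mean of its group (log2 units; red above, blue below) for the 9 genes, with the mean over all genes in the bottom line. Control replicate 3 is above its group mean for every one of the 9 genes, by 0.10 to 0.31.

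All 9 genes varied more among control than among mutant arrays, from 1.27 times in SD for Fosl2 to 9.23 times for Jun. Their median SD was 0.23 in control cells and 0.08 in mutant cells, against 0.09 and 0.07 over all genes. With 3 arrays a group, an SD is itself loosely determined. The 9 ratios share the same arrays, with control replicate 3 the highest control each time, so they are not 9 separate observations. Without control replicate 3, 5 of the 6 calls held, and Fos did not pass. The log2 fold changes without that array were -0.39 for Fos, -0.45 for Fosb, -0.52 for Junb, -0.41 for Egr1, -0.55 for Ier2 and -0.49 for Zfp36. Each fall was smaller without it, which had to be so because it was the highest control array for every one of these genes.

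By a rule that ranked 9668 other genes above the median brightness on how closely their within-group deviations followed the mean of the 9 genes, the nearest were Tsc1 (r = 1.00 over 6 arrays), an inhibitor of mTORC1 signalling, Tox3, Grhl2, Isca1 and Faf2 (r = 0.99 to 1.00). The 6 points share arrays and had their group means removed. The 5 genes were picked for the highest r among 9668, so high values follow from the choice. This ranking too is only a description. Between groups these 5 genes did not share a direction. Tox3, a nuclear HMG-box protein gene, fell by 0.45 on the log2 scale (adjusted p = 0.0014), whereas Tsc1 (0.18), the epithelial factor Grhl2 (0.12), Isca1 (-0.14) and Faf2 (-0.11) did not pass. Tsc1 passed in 5 of 14 alternatives, with an adjusted p of 0.0262 to 0.0458 in those, and Isca1 in 1 (adjusted p = 0.0496).

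Related genes were taken from 8 lists covering the pathway. Over the 89 measured genes of these lists, 17 fell, 17 rose and 55 did not pass, with a median log2 fold change of -0.04. That is 34 of 89 called, beside the 39.6% called among bright genes, to which 69 of the 89 belong.

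Egr2 and Egr4, relatives of Egr1, fell as well. Of 5 measured genes of the EGR family and its NAB co-repressors, 3 fell, 0 rose and 2 did not pass, and the median log2 fold change was -0.38. Egr2 read 10.51, 10.42 and 10.87 in control cells and 9.89, 10.09 and 9.71 in mutant cells, with a log2 fold change of -0.70 (adjusted p = 0.0070). Egr4 had one of -0.39 (adjusted p = 0.009995), and Nab2, a co-repressor that EGR1 itself induces, one of -0.38 (adjusted p = 0.0038). The list had 3 falls whichever array was left out. Neither Egr3 (-0.11) nor Nab1 (-0.03) passed.

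Most of the other AP-1 subunits did not pass the test. Of 7 measured genes, 0 fell, 1 rose and 6 did not pass, and 2 of the 7 were brighter than the median. At an unadjusted p under 0.05 there were also 0 lower genes. The member that rose was Atf2, a constitutive partner of JUN that is switched on by phosphorylation, with a log2 fold change of 0.31 (adjusted p = 0.0060). Without control replicate 3, Jdp2, a JUN-binding repressor, was lower (-0.40, adjusted p = 0.0399).

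Among 14 other immediate early transcription regulators, 3 fell, 0 rose and 11 did not pass, and 12 of the 14 had a negative fold change with a median of -0.07. Nr4a1, an orphan nuclear receptor, had a log2 fold change of -0.40 (adjusted p = 0.0388), Ier3, a stress-induced regulator of cell survival, one of -0.41 (adjusted p = 0.0149), and Myc one of -0.34 (adjusted p = 0.0331). These 3 calls did not hold throughout. With each array centred on its median, Nr4a1 and Myc did not pass (adjusted p = 0.0564 and 0.0540), and without mutant replicate 1 none of the 3 did (adjusted p = 0.0740 for Nr4a1, 0.0586 for Ier3 and 0.0997 for Myc). The list had 1 fall without mutant replicate 2 and 1 without mutant replicate 3. Klf6, a zinc finger factor, missed the threshold at a log2 fold change of 0.38 (adjusted p = 0.0589), and passed in 5 of 14 alternatives. These were the fit without control replicate 3 (0.51, adjusted p = 0.0080), that with the replicate block (adjusted p = 0.0273), quantile normalization (0.0396), dim genes left out (0.0247) and array weights (0.0410), and in each the list had 1 rise or more. Btg2, an anti-proliferative gene, also passed without control replicate 3 (0.23, adjusted p = 0.0373).

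The immediate early feedback and effector genes went both ways. Of 20 measured, 6 fell, 3 rose and 11 did not pass, with a median log2 fold change of -0.18. Sgk1, an aldosterone- and serum-induced kinase, fell by 0.75 on the log2 scale (adjusted p = 0.0011). Gadd45g (-0.57), Dusp6, the ERK phosphatase (-0.44), and Socs3, an inhibitor of cytokine receptors (-0.30), fell likewise. The 2 largest changes of the list were rises. Rhob, a small GTPase, read 9.21, 9.98 and 10.23 in control cells and 10.97, 10.99 and 11.06 in mutant cells (log2 fold change 1.20, adjusted p = 0.0060). Ccn2, a matricellular growth factor, had a log2 fold change of 1.11 (adjusted p = 0.0003). Dusp1, a phosphatase of the same induction class as Fos, did not pass (-0.12), and its sign turned without control replicate 3 (0.05).

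**Figure D4:**
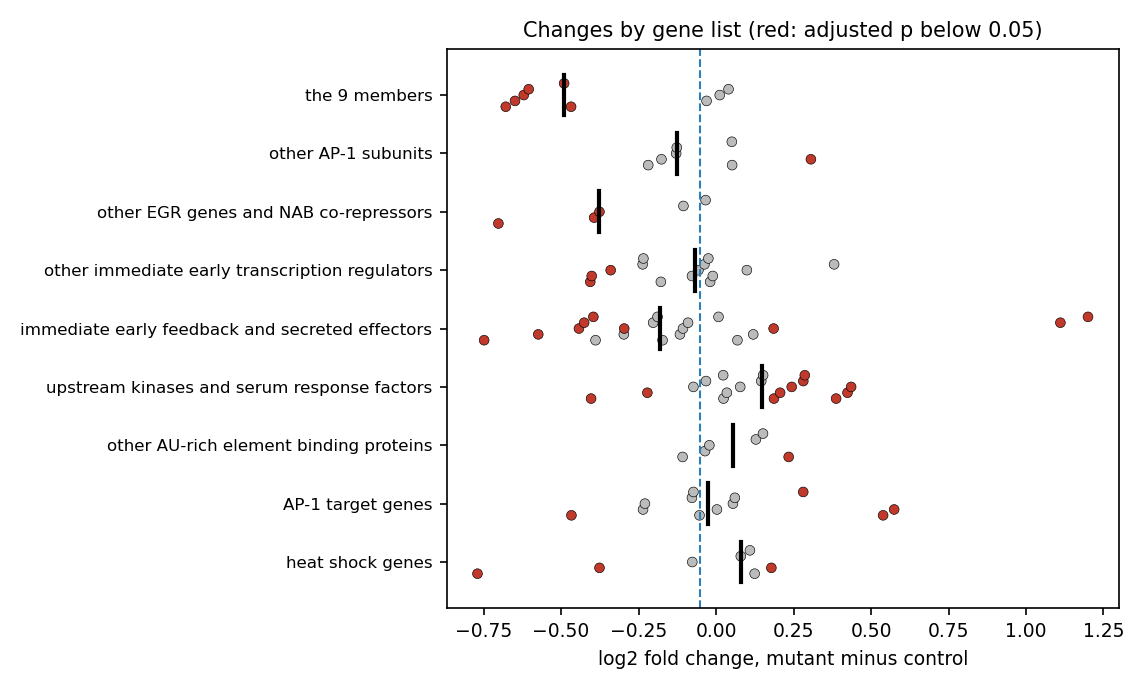
Log2 fold changes (mutant minus control) of the 9 genes and of the 89 measured genes of the 8 related lists, 1 point a gene, red where the adjusted p was below 0.05; black bars are list medians and the dashed line is the median over all genes (-0.05). The medians of the 9 genes (-0.49) and of the EGR and NAB list (-0.38) lie farthest below that line.

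Among the kinases and factors that act upstream of these promoters, more genes rose than fell. Of 18 measured, 8 rose, 2 fell and 8 did not pass, with a median log2 fold change of 0.15. Rps6ka3, the ERK-activated kinase RSK2 (0.44), and Elk4, a partner of serum response factor (0.42), rose, as did the co-activator gene Mrtfb (0.29), the cyclic AMP factor Crem (0.39) and the JNK activator Map2k4 (0.24). Map2k2, which encodes the ERK kinase MEK2, fell by 0.40 (adjusted p = 0.0050). Srf itself (-0.07) did not pass. The list had 4 rises without control replicate 1, 5 without control replicate 2, 3 without mutant replicate 1 and 4 without mutant replicate 3. It had 1 fall without control replicate 1 or any 1 of the mutant replicates. Without mutant replicate 1, Mrtfb and Map2k4 did not pass (adjusted p = 0.0501 and 0.0723). Crem did not pass without control replicate 1 or control replicate 2 (adjusted p = 0.0505 and 0.0564), nor Map2k4 without mutant replicate 3 (adjusted p = 0.0599).

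Of 6 other proteins that bind AU-rich elements, 1 rose and 5 did not pass. Zfp36l1, a close relative of Zfp36, had a log2 fold change of 0.23 in the opposite direction to Zfp36 (adjusted p = 0.0274), and passed in 1 of the 6 fits that each left out an array, the one without control replicate 3 (adjusted p = 0.0122).

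Known AP-1 target genes did not fall as a group: of 12 measured, 3 rose, 1 fell and 8 did not pass, and the median was -0.03. Timp1, an inhibitor of matrix proteases, and Plau, the urokinase gene, had log2 fold changes of 0.54 and 0.57 (adjusted p = 0.0009 and 0.0030). Cyclin D1, Ccnd1, rose by 0.28, and the adhesion receptor gene Cd44 fell by 0.47. Of the 12 genes, 9 were below the median brightness. Without control replicate 3 the list had 3 falls, the added ones being the intermediate filament gene Vim (-0.31, adjusted p = 0.0095) and the protease gene Mmp10 (-0.32, adjusted p = 0.0414). Vim passed in 4 of 14 alternatives, the others being dim genes left out (adjusted p = 0.0253), the variance trend with robust eBayes (0.0172) and array weights (0.0324).

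Heat shock genes, which respond to stress during dissociation, showed no common direction. Of 7 measured, 2 fell, 1 rose and 4 did not pass, with a median log2 fold change of 0.08. Hspb1 fell by 0.77 and Dnajb1 by 0.38 (adjusted p = 0.0022 and 0.0105), while Hsp90aa1 had a log2 fold change of 0.18 and lost its call whichever array was left out (adjusted p = 0.0577 to 0.138).

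Markers of other kidney cell types were mostly dim. Of 43 measured markers of stroma, endothelium, immune, erythroid, cap mesenchyme and nephron cells, 8 lay above the median brightness, 2 rose, 5 fell and 36 did not pass, and the median change was -0.09 on the log2 scale. The 2 that rose were Six2 of the cap mesenchyme (log2 fold change 3.29) and Lrp2 of the proximal tubule (1.05). The 8 endothelial markers had a median log2 fold change of -0.29, 1 of them fell, and 1 lay above the median brightness. The mean log2 level of those 8 was 6.77 to 7.15 on the control arrays and 6.54 to 6.93 on the mutant arrays, which overlap. On control replicate 3, where the 9 genes were highest, the endothelial mean (6.77) was the lowest of the controls. The 9 immune markers, all below the median brightness, had mean levels of 5.80 to 6.02 in control cells and 5.74 to 5.85 in mutant cells, 1 of them fell, and control replicate 3 was again the lowest control (5.80). The 8 stromal markers, with 0 past the threshold and 2 above the median brightness, had mean levels of 6.61 to 6.87 in control and 6.67 to 6.81 in mutant cells. The 7 cap mesenchyme markers held 1 rise and 1 fall. Their mean levels were 7.01 to 7.14 in control and 7.43 to 7.44 in mutant cells. Without Six2 the other 6 gave 7.04 to 7.16 and 6.94 to 6.96, the opposite direction. The fall was that of Osr1 (log2 fold change -0.67), by far the largest change among these 6, and the rest of them did not pass. Of the 7 markers, 5 had a negative fold change. Mean levels overlapped between the groups for the 8 nephron markers (6.38 to 6.80 and 6.58 to 6.80) and the 3 erythroid markers (5.93 to 6.22 and 5.93 to 6.13). The nephron mean joins opposite changes: Lrp2 rose, Slc34a1 (log2 fold change -0.69) and Hnf4a (-0.31) fell, and 5 did not pass. The table holds no detection call, so no marker could be called absent, and the part of other cells in the falls of the immediate early genes was not tested. The time from dissection to lysis is not given for any array, and its part was not tested.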

How the data were processed

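The values deposited by the authors are log2 RMA expression values, 1 per probe set and array. The submitters' processing notes name RMA and affy; versions and genome build are not given there. RMA in general equalises the arrays at the level of single probes before summarising them, so a shift common to most transcripts is largely removed, and it compresses the changes of dim genes; array medians of the deposited values still differed slightly. The platform annotation gave 20728 of the 23309 probe sets a single gene symbol and 1174 several, and did not list 1407. For each gene the probe set with the highest mean over 6 arrays was kept, giving 19296 genes, with no filter on intensity.

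Genotype was the only term of a linear model per gene (limma 3.58.1 in R 4.3.3), with a two-sided threshold of 0.05 after Benjamini-Hochberg adjustment. The labels call the replicates biological without naming embryos or pools, so the p-values speak of the spread among these arrays. At most 22 values were identical between any 2 arrays. The number of arrays limits the precision. On simulated arrays of 19296 genes the fit recovered 64% of 50 genes changed by 0.5 and 98% of those changed by 1, and called 12 unchanged genes. The simulated noise was independent between genes and had the same SD in both groups. The members varied more in control cells and moved together there, so these shares do not give the power for them.

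The members and lists were chosen with earlier results of these data known. Named were all members, Dicer1, up to 6 genes past the threshold per related list by smallest p (or 2 where none passed), and the 5 genes nearest in within-group pattern. Egr3, Nab1, Klf6, Btg2, Jdp2, Vim, Mmp10, Dusp1 and Srf, and the short motif TGACG, were added after values were seen. As alternatives, the fit was repeated without each array, with a replicate block, after quantile normalization or median centring, without dim genes, on probe sets averaged per gene, with array weights, with eBayes set to trend and robust, and at a threshold of 0.01. Promoters were matched by symbol to a RefSeq table. Figures used matplotlib 3.10.9.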

Additional observations from a re-analysis of the deposited data

How the results depend on the processing

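Junb, Egr1, Ier2, Zfp36 and Dicer1 stayed lower and past the threshold under all 14 alternatives, with adjusted p of at most 0.0257, 0.0119, 0.0069, 0.0344 and 0.0038. Fos passed in 8 and Fosb in 11 of 14, always with a negative fold change. Fos ranged from -0.64 to -0.39 and Fosb from -0.72 to -0.45 with an array left out, and at a threshold of 0.01 neither passed (-0.49 and -0.60). At that threshold 4 members were lower, and 2790 genes were called over all, 1367 higher and 1423 lower, against 4975, 2285 and 2690 at 0.05. Leaving out each array gave 4 to 6 lower members and 0 higher, and 1764 to 2973 lower genes over all. The 17 lower and 17 higher genes of the related lists became 8 and 8 at 0.01, and 11 to 20 and 9 to 17 with an array left out (11 lower and 9 higher without mutant replicate 1). Of the genes near 0, Fosl2 turned sign under quantile normalization (-0.0084) and array weights (-0.0058) and ranged from -0.0666 to 0.0722 with an array left out. Jun turned under quantile normalization (0.0123) and median centring (0.0032) and ranged from -0.0921 to 0.0460, and Atf3 ranged from -0.0288 to 0.172. Nab1 ranged from -0.0756 to 0.0043 (0.0001 with median centring) and Dusp1 from -0.206 to 0.0485. None of these 5 genes passed in any alternative; the cause was not tested. Leaving out Six2, an alternative chosen after seeing the data, turned the mean change of the cap mesenchyme markers from 0.35 to -0.14.

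Arrays with the same replicate number did not deviate together (r of -0.19, -0.10 and -0.22 over all genes), so the numbers were not taken as pairs. With the replicate block, Fos kept its fold change of -0.49 but did not pass (adjusted p = 0.0691), 5 members were lower, 3603 genes were called over all, and 14 lower and 11 higher genes were called in the related lists.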
